A study of Mus musculus with 26 samples.

Results

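The Ikaros family of zinc finger transcription factors has 5 genes in the mouse, Ikzf1 (Ikaros), Ikzf2 (Helios), Ikzf3 (Aiolos), Ikzf4 (Eos) and Ikzf5 (Pegasus). They were taken by symbol from both deposited RNA-seq tables, and all 5 were listed among the 19404 genes of the deletion table and the 19719 genes of the knockdown table. The study asked how cultured pro-B cells depend on Brg1, a product of Smarca4 and the motor of SWI/SNF complexes that remodel chromatin. Bone marrow cells positive for B220 were grown for 7 days with IL7 and SCF. In the deletion experiment 2 libraries came from Brg1F/F x ER-Cre cells (floxed Brg1 alleles) and 2 control libraries from Brg1+/+ x ER-Cre cells. Both genotypes carried ER-Cre and both were kept in 0.3 µM tamoxifen over the final 60 hours. All cells of the knockdown experiment were Rag1-/-, which cannot assemble antigen receptor genes. Retrovirus carrying a Brg1 shRNA (3 libraries) or a control shRNA (3 libraries) was added on days 3 and 4, and infected cells were enriched through hCD25 magnetic beads 2 days later. The strain is given as C57/Bl6 for all 10 libraries, and the age of the mice is not given in the sources used here.

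Ikaros family proteins bind DNA sites with a GGGAA core through fingers near the amino end and pair with themselves and each other through a pair of fingers at the carboxyl end. Ikaros is needed for lymphoid development, and Aiolos accumulates as mouse pro-B cells become pre-B cells. Helios and Eos are best known from T cells, in particular regulatory T cells, and Pegasus is the most divergent member. In lymphoid cells Ikaros is found with the NuRD deacetylase complex, with Sin3 and CtBP corepressors and, in part, with SWI/SNF complexes that hold Brg1.

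The start regions of Ikzf1 and Ikzf5 are shown because they are the 2 of the 5 members matched in the RefSeq promoter table (build GRCm38.p6), because Ikzf1 has 2 start regions of very different composition, and because the Ikzf5 window also holds the start of a neighbouring gene. Each window runs from 250 bases before to 50 bases after the start, on the gene's own strand, and capitals mark GGGAA or its reverse complement TTCCC.
Ikzf1 upstream start, chr11:11685675-11685974, plus strand: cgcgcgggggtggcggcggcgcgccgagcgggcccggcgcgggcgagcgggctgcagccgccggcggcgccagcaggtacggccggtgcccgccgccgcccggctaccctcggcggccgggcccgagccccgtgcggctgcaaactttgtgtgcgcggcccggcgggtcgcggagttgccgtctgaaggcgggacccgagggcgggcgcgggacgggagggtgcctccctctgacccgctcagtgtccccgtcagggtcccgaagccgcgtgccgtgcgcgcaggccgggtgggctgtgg
Ikzf1 downstream start, chr11:11689927-11690226, plus strand: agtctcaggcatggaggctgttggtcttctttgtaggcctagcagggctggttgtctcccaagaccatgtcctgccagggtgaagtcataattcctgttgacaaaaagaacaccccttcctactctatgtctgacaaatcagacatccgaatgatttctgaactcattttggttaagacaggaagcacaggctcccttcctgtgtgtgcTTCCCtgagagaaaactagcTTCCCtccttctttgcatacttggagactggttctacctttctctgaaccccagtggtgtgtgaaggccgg
Ikzf5 start, chr7:131410429-131410728, minus strand: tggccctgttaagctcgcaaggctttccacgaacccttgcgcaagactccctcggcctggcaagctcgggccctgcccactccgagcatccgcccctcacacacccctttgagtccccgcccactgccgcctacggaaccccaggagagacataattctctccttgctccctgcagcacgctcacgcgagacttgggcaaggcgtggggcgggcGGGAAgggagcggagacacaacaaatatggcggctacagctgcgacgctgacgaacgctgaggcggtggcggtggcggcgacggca
The upstream Ikzf1 window was 81.3% G and C with 52 CG dinucleotides, and the downstream one was 49.0% with 2, where the median over 32851 windows of 300 bases was 52.7%. The letters of the motif occurred 0 times in the upstream Ikzf1 window, 2 times in the downstream one and 1 time in the Ikzf5 window, and 62.7% of all windows held at least 1 match on either strand. These are letter matches and not binding sites.

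The tables hold 1 authors' mean per group and gene, in normalized reads, that is reads divided by a size factor of each library. A deletion mean combines whole reads of only 2 libraries, so that values per library could be recovered for most genes, among them Ikzf2, Ikzf4 and Ikzf5. The libraries held about 8783718 and 11587930 reads in the Brg1-deleted group and 10217485 and 10763403 in controls, and from about 8304412 to 11050884 with Brg1 shRNA and from 5201377 to 10509274 with control shRNA. They carry no replicate number here and are named by depth. Whether the libraries within a group stem from separate mice is not given in the sources used here, so p-values measure only the spread between these libraries. Smarca4 had authors' means of 6067 in Brg1-deleted and 17898 in control cells, and of 6743 with Brg1 shRNA and 13340 with control shRNA, with adjusted p-values of 0.0008 and 0.0472 by the authors' deposited tables. The libraries of 1 group were unlike each other in their marker sums, those of the B lineage included. The summed level of 15 of 16 myeloid markers was 5045 in the deeper and 2691 in the shallower Brg1-deleted library, and 4445 in the deeper and 8947 in the shallower control library. That of 17 of 17 T and innate lymphoid markers was 978 and 2620 in the Brg1-deleted and 2377 and 1689 in the control libraries, in the same order of depth. That list also holds Il7r, the IL7 receptor gene, which is an early B cell identity marker here as well. Its T cell genes Lck, Thy1 and Tcf7 had authors' means of 62.8, 42.2 and 61.2 in Brg1-deleted and 195.0, 265.7 and 26.8 in control cells. The sum therefore does not measure T or innate lymphoid cells alone. All 12 early B cell identity markers were listed in both tables. The summed level of the 3 of them that could be recovered per library was 1049 in the deeper and 3660 in the shallower Brg1-deleted library, and 3963 in the deeper and 2515 in the shallower control library. In bulk samples, fewer cells of a type and less RNA per cell cannot be told apart.

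Ikzf1 and Ikzf3 were the leading family members in every group. Levels between genes are given here as authors' means per kilobase of exon. In Brg1-deleted cells Ikzf1 stood at 803 normalized reads per kilobase, Ikzf3 at 592, Ikzf5 at 117, Ikzf2 at 4.94 and Ikzf4 at 4.42. In the controls of that experiment the levels were 707 for Ikzf1, 389 for Ikzf3, 107 for Ikzf5, 12.2 for Ikzf4 and 6.05 for Ikzf2. Of all listed genes 96.7% lay below Ikzf1 in Brg1-deleted and 95.7% in control cells, whereas 30.4% and 33.1% lay below Ikzf2. With Brg1 shRNA the order was Ikzf1 at 693, Ikzf3 at 393, Ikzf5 at 94.2, Ikzf4 at 7.40 and Ikzf2 at 2.17 normalized reads per kilobase. It was the same with control shRNA, at 671, 288, 93.3, 6.42 and 1.99. The tables were normalized separately, so levels are not tested across them.

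**Figure D1:**
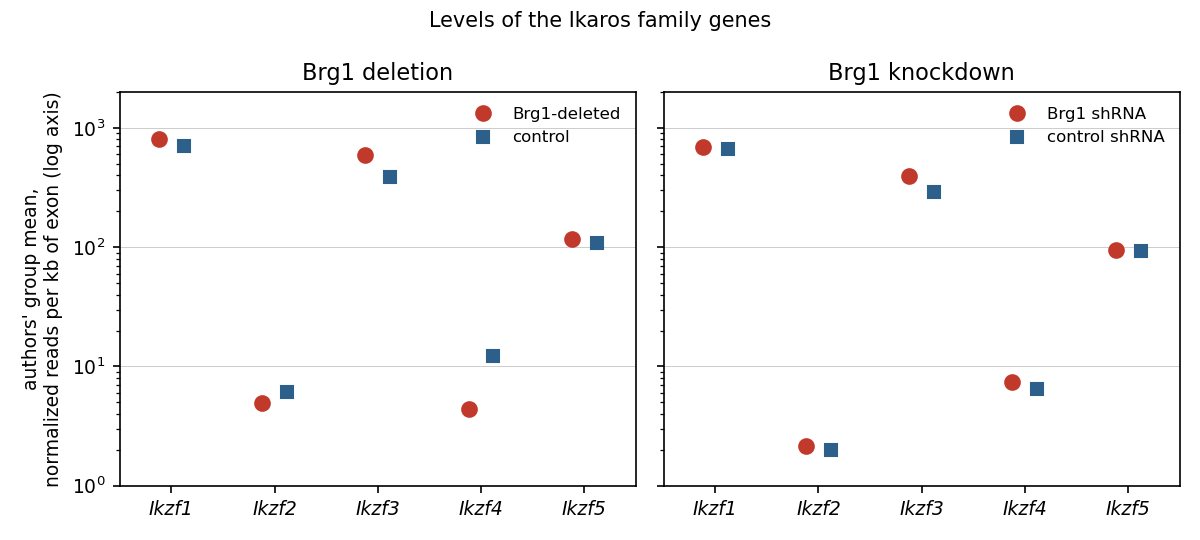
Authors' group means of the 5 Ikaros family genes in normalized reads per kilobase of exon, on a log axis, in Brg1-deleted and control cells (left) and with Brg1 shRNA and control shRNA (right). Ikzf1 and Ikzf3 lie at 288 or higher in all 4 groups, Ikzf5 near 100 and Ikzf2 and Ikzf4 at or below 12.2.

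Some neighbours in that order were not separated. In the Brg1-deleted libraries Ikzf2 stood at 6.79 and 3.09 normalized reads per kilobase and Ikzf4 at 3.603 and 5.237, so the pair overlapped. In the control libraries Ikzf4 stood at 13.7 and 10.7 and Ikzf2 at 4.45 and 7.65, without overlap. The ratio of Ikzf4 to Ikzf2 per kilobase was 0.895 in Brg1-deleted and 2.01 in control cells, and 3.41 with Brg1 shRNA and 3.23 with control shRNA.

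No Ikaros family gene was called at an adjusted p of 0.05 in either experiment. The authors' deposited deletion table calls 0 of the 5 members, where 1.47% of all listed genes are called, and the authors' deposited knockdown table calls 0 of 5, where 0.218% are called. At an unadjusted p under 0.05, 1 member, Ikzf4, passes after deletion, against 9.52% of all genes, and 0 pass after knockdown, against 2.74%. With background shares this small and 5 members, a count of 0 says little about the family. A limma fit of the recovered reads called 0 of 16771 genes (0%), with 16.7% at an unadjusted p under 0.05, and so 0 of the 3 members it could fit, with 1, Ikzf4, under that unadjusted level.

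Ikzf1, which encodes Ikaros (ENSMUSG00000018654, mm10 chromosome 11, 11685003 to 11772926), had an authors' mean of 4640 in Brg1-deleted cells, against 4085 in controls. The log2 fold change was 0.18 with p = 0.640 and an adjusted p of 1 by the authors' deposited table. In the knockdown the authors' means were 4003 with Brg1 shRNA and 3875 with control shRNA, a log2 fold change of 0.05 with p = 0.938 and an adjusted p of 1 by the authors' deposited table. The means had 3 whole-read solutions in each deletion group. The most even solution gave 4008 and 5273 normalized reads in the Brg1-deleted libraries and 4462 and 3708 in the control libraries. The other 2 solutions gave 7425 and 1855 or 590 and 8690 in the Brg1-deleted libraries, and 6397 and 1772 or 97.5 and 8072 in the control libraries. The groups overlapped in all 9 combinations of solutions. For the most even combination limma gave a log2 difference of 0.18 ± 0.20 (SE), with a 95% interval from -0.32 to 0.68. That interval does not reach a 2-fold change in either direction, but it holds only if the most even solution is the right one. The tables count reads per gene over 6 transcripts, so that shifts between Ikaros isoforms, including those that lack DNA-binding fingers, were not measured.

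Ikzf3, which encodes Aiolos (ENSMUSG00000018168, mm10 chromosome 11, 98464902 to 98546031), had the higher authors' mean in the Brg1-depleted group of both experiments, without a call in either. The authors' means were 5180 in Brg1-deleted and 3409 in control cells, a 1.52-fold difference with p = 0.174 and an adjusted p of 1 by the authors' deposited table. With Brg1 shRNA the authors' mean was 3437 and with control shRNA 2519, a 1.36-fold difference. The p was 0.120 and the adjusted p was 1 by the authors' deposited table. The 2 experiments share no libraries. A log2 difference at least as large in size was seen in 29.6% of genes with at least 10 normalized reads in both groups after deletion, and in 18.3% after knockdown. The deletion means had 2 whole-read solutions per group. They were 6403 and 3957 or 2985 and 7375 normalized reads in the Brg1-deleted libraries, and 2695 and 4123 or 4630 and 2188 in the control libraries. The groups overlapped in all 4 combinations, and limma intervals for the log2 difference ran from at lowest -0.79 to at highest 1.91, each of them including 0.

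Relative to Ikzf1, Ikzf3 stood higher in the Brg1-depleted groups. Per kilobase the ratio of Ikzf3 to Ikzf1 was 0.737 in Brg1-deleted and 0.551 in control cells, and 0.567 with Brg1 shRNA and 0.429 with control shRNA. Ikzf3 made up 38.9% of the family's summed level per kilobase in Brg1-deleted and 31.9% in control cells, and 33.0% with Brg1 shRNA and 27.1% with control shRNA. The share of Ikzf1 was 52.8% in Brg1-deleted and 57.9% in control cells, and 58.3% with Brg1 shRNA and 63.3% with control shRNA. Per library the ratio took several values, because both genes had several whole-read solutions. For the most even solutions it was 1.05 and 0.495 in the Brg1-deleted libraries and 0.399 and 0.734 in the control libraries. The groups overlapped in this and in all other of the 36 combinations of solutions.

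Ikzf5, which encodes Pegasus (ENSMUSG00000040167, mm10 chromosome 7, 131388652 to 131410521), was the most even member over the libraries. The recovered values were 545 and 600 normalized reads in the Brg1-deleted libraries and 560 and 489 in the control libraries, so the groups overlapped. The authors' means were 573 in Brg1-deleted and 525 in control cells, a log2 fold change of 0.13 with p = 0.745 and an adjusted p of 1 by the authors' deposited table. For this gene limma gave a log2 difference of 0.13 ± 0.18 (SE), with a 95% interval from -0.33 to 0.58. With Brg1 shRNA the authors' mean was 460 and with control shRNA 456, a log2 fold change of 0.01 with p = 0.805 and an adjusted p of 1 by the authors' deposited table.

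Ikzf4, which encodes Eos (ENSMUSG00000002578, mm10 chromosome 10, 128630843 to 128645991), had the lowest p of the family. It was recovered at 21.6 and 31.4 normalized reads in the Brg1-deleted libraries, from 25 and 27 reads, and at 81.9 and 64.0 in the control libraries, from 84 and 64 reads. Both Brg1-deleted libraries were below both control libraries. Groups without overlap are common with 2 libraries against 2, and were found in 48.1% of 16771 resolved genes, 23.4% with the Brg1-deleted group lower. The authors' means were 26.5 in Brg1-deleted and 73.0 in control cells, a 2.75-fold lower level with p = 0.0092 by the authors' deposited table. The adjusted p there was 0.256, which did not pass. A limma fit gave a log2 difference of -1.46 ± 0.38 (SE), a 95% interval from -2.41 to -0.50 and an adjusted p of 0.171. Without the deeper control library the log2 difference was -1.28, with an interval from -2.66 to 0.09 that includes 0 and an unadjusted limma p of 0.0636. Differences at least as large as the 2.75-fold one between the authors' means occurred in 3.94% of genes with at least 10 normalized reads in both groups.

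After knockdown the Ikzf4 mean lay slightly higher, not lower. The authors' means were 44.4 with Brg1 shRNA and 38.5 with control shRNA, a log2 fold change of 0.21 with p = 0.645 and an adjusted p of 1 by the authors' deposited table. Whole reads gave 6 solutions with Brg1 shRNA and 4 with control shRNA, and the groups overlapped in all 24 combinations. Of 11529 genes with at least 10 normalized reads in all 4 groups, 197 had a deletion log2 fold change at or below that of Ikzf4, counting Ikzf4. Of these 197, 16 (8.12%) were above 0 after knockdown and 11 (5.58%) were at or above Ikzf4. That count was made after the values were seen, and the difference between the experiments was not tested.

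**Figure D2:**
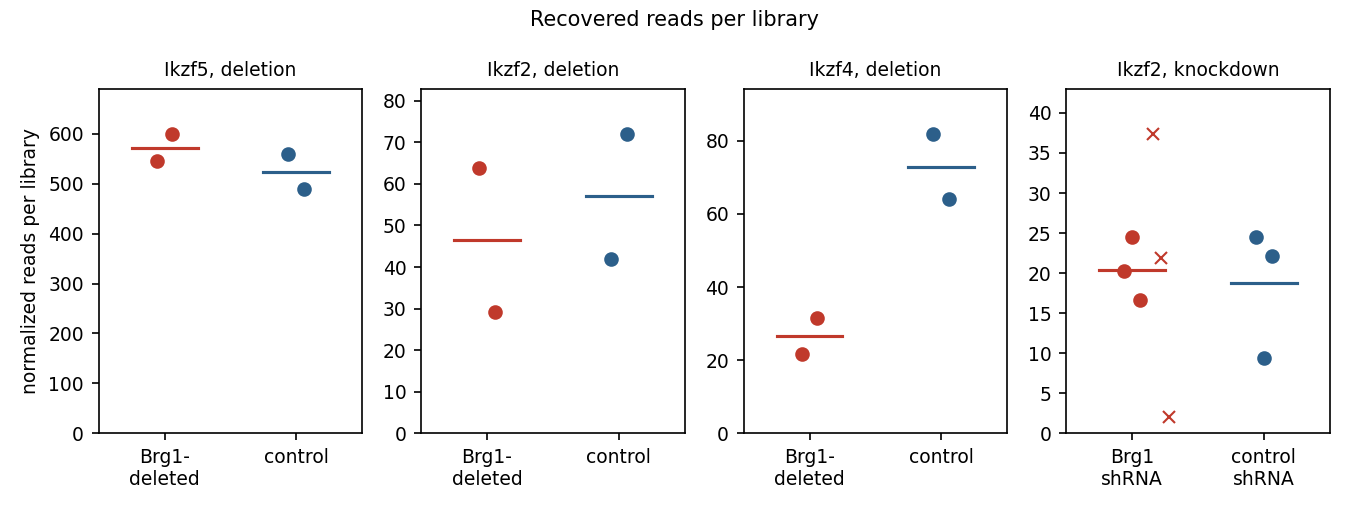
Normalized reads per library, recovered from the authors' means, for Ikzf5, Ikzf2 and Ikzf4 in Brg1-deleted and control cells and for Ikzf2 with Brg1 shRNA and control shRNA. Points are libraries, lines are the authors' group means, and crosses are a second whole-read solution. The 2 Brg1-deleted libraries lie below both controls for Ikzf4 (21.6 and 31.4 against 81.9 and 64.0), and the groups overlap in the other panels.

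Ikzf2, which encodes Helios (ENSMUSG00000025997, mm10 chromosome 1, 69531214 to 69685960), varied more within groups than between them. It was recovered at 63.9 and 29.1 normalized reads in the Brg1-deleted libraries and at 41.9 and 72.1 in the control libraries, where the groups overlapped. The authors' means were 46.5 in Brg1-deleted and 57.0 in control cells, a log2 fold change of -0.29 with p = 0.763 and an adjusted p of 1 by the authors' deposited table. The limma interval was wide, from -1.65 to 0.96, and so holds a 2-fold lower level. In the knockdown, Brg1 shRNA libraries stood either at 20.3, 24.5 and 16.6 or at 37.4, 21.9 and 2.07 normalized reads, as there were 2 whole-read solutions. Control shRNA libraries stood at 24.5, 9.42 and 22.2, as the only solution, and the groups overlapped in both cases. The authors' means were 20.4 with Brg1 shRNA and 18.7 with control shRNA, a log2 fold change of 0.13 with p = 0.799 and an adjusted p of 1 by the authors' deposited table.

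Ikzf2 had its higher value in the deeper Brg1-deleted and in the shallower control library, as did the summed myeloid markers given above. So did the sum of 8 of 14 pre-B and later B cell markers. Deeper library first, it was 8966 and 3615 in the Brg1-deleted and 1679 and 2615 in the control libraries. The sum of 6 of 9 erythroid and megakaryocyte markers had that order as well. It was 253 and 150 in the Brg1-deleted and 130 and 239 in the control libraries. The macrophage receptor gene Csf1r followed the same order, at 682 in the deeper and 186 in the shallower Brg1-deleted library and at 259 in the deeper and 913 in the shallower control library. Klrd1, a receptor chain of natural killer cells, stood at 21.6 and 3.49 in the Brg1-deleted and at 2.92 and 16.0 in the control libraries. The T cell receptor chain gene Cd3e stood at 6.05 and 1.16 in the Brg1-deleted and at 0 and 10.0 in the control libraries. Foxp3, which defines regulatory T cells, stood at 8.64 and 10.5 in the Brg1-deleted and at 7.8 and 13.0 in the control libraries. The part of such cells in the Ikzf2 level was not tested. Ikzf4 ran the other way within each group. Its higher value was in the shallower Brg1-deleted library (27 against 25 reads) and in the deeper control library (84 against 64 reads). The neutrophil gene S100a8 had that order too, at 0.864 and 134 in the Brg1-deleted and 208 and 13.0 in the control libraries, as had the summed T and innate lymphoid markers and the summed early B cell identity markers given above. Il7r counts in both of these sums, so they are not independent. Cd3e, Klrd1, Foxp3, Ncr1, Cd4, Cd8a, Gata3 and Bcl11b, of the T and innate lymphoid list, had the opposite order in the control libraries, at 16.0 or lower in each. After deletion 16 of 16 myeloid markers had a log2 fold change below 0, the median being -0.76, and 4 were called lower (Prtn3, Ctsg, Elane and Ly6c2). Among all genes 0.742% were called lower and 0.732% higher. Of the 17 T and innate lymphoid markers, 2 were called lower (Thy1 and Lck), at a median of -0.47, and 0 were called higher. Lck was not lower after knockdown, at 427 with Brg1 shRNA and 273 with control shRNA, without a call. The part of any of these cells in the lower Ikzf4 level after deletion was not tested. With 2 libraries per group few orders are possible, so a shared order does not link a member to a cell type. The share of all genes with each order was not counted. After knockdown 0 of 16 myeloid and 0 of 15 listed T and innate lymphoid markers were called, at medians of 0.00 and -0.25, where 0.218% of all genes were called. Erythroid and megakaryocyte markers had 0 calls in both tables, with 6 of 9 listed at a median of 0.17 for deletion and 7 of 9 at a median of 0.78 for knockdown.

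**Figure D3:**
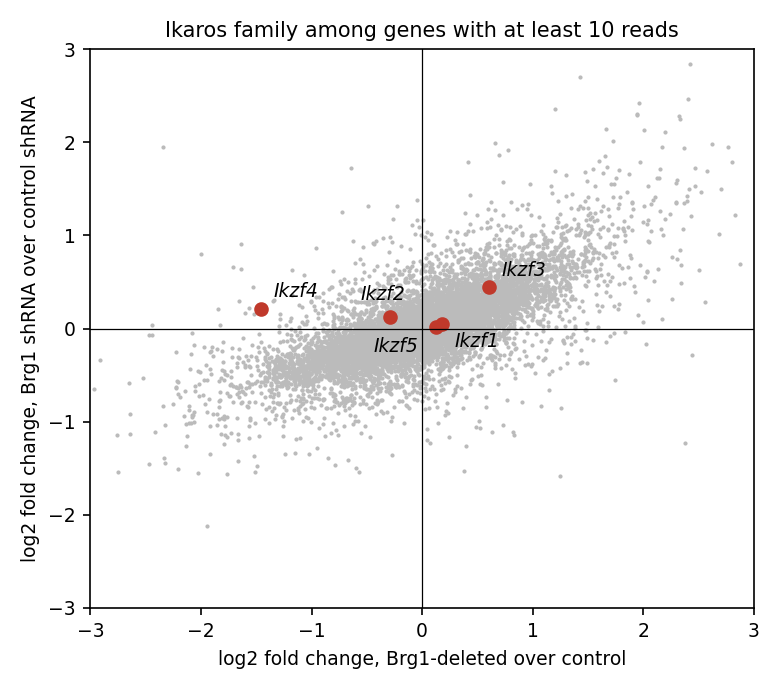
Log2 fold changes of the authors' deposited tables for genes with at least 10 normalized reads in all 4 groups (grey, 11511 of 11529 inside the axes) and the 5 Ikaros family genes (red), with deletion on the horizontal and knockdown on the vertical axis. Ikzf3 lies above 0 on both axes (0.60 and 0.45), Ikzf1 and Ikzf5 lie near the origin, and Ikzf4 lies at -1.46 and 0.21.

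The genes next to the members on the chromosomes were read by position after the values had been seen. Suox, which encodes sulfite oxidase (mm10 chromosome 10, 128669887 to 128673918), lies 23.9 kb from Ikzf4 at higher coordinates. Both genes are on the minus strand, and Suox was called higher after deletion, as were 0.732% of all genes. Suox was the only called gene among the neighbouring and overlapping genes read, not all of which are named here. Its authors' means were 176 in Brg1-deleted and 47.0 in control cells, a 3.74-fold rise with an adjusted p of 0.0085 by the authors' deposited table. With Brg1 shRNA the authors' mean was 88.5 and with control shRNA 34.8, with an unadjusted p of 0.0016 and an adjusted p of 0.404 by the authors' deposited table. On the other side of Ikzf4, the ribosomal protein gene Rps26 had authors' means of 4721 in Brg1-deleted and 5680 in control cells, with an adjusted p of 1 by the authors' deposited table. Gm26876, a long non-coding RNA gene on the plus strand, overlaps Ikzf4 at its higher coordinates. Its authors' means were 5.93 in Brg1-deleted and 6.40 in control cells, without a call. Acadsb, an acyl-CoA dehydrogenase gene on the plus strand, starts 80 bases from the listed end of Ikzf5, which lies on the minus strand, so the Ikzf5 window printed above holds both starts. Acadsb had authors' means of 263 in Brg1-deleted and 130 in control cells, with p = 0.0117 and an adjusted p of 0.297 by the authors' deposited table. Next to Ikzf3, the adaptor gene Grb7 had authors' means of 437 in Brg1-deleted and 716 in control cells, with an adjusted p of 0.688 by the authors' deposited table. Fignl1, next to Ikzf1, had authors' means of 706 in Brg1-deleted and 945 in control cells, with an adjusted p of 1 by the authors' deposited table. An antisense transcript, Gm12000, overlaps Ikzf1 with authors' means of 26.5 in Brg1-deleted and 18.2 in control cells. The libraries mark the strand by dUTP, but whether counting used it is not given in the sources used here.

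The corepressors that Ikaros works with had no called gene in either table. Among all genes, 0.732% were called higher and 0.742% lower after deletion, and 0.177% higher and 0.0406% lower after knockdown, and the median log2 fold change over all genes was 0.00 in both tables. Of 13 NuRD and deacetylase genes 9 lay below 0 after deletion, with a median of -0.22, and 9 after knockdown, with a median of -0.10. Rbbp7, a histone-binding subunit, had authors' means of 1394 in Brg1-deleted and 2921 in control cells, and an adjusted p of 0.0709 by the authors' deposited table. Chd3, an alternative ATPase of NuRD, stood on the other side at 6239 in Brg1-deleted and 3069 in control cells, with an adjusted p of 0.111 by the authors' deposited table. The deacetylase gene Hdac1 had authors' means of 794 in Brg1-deleted and 1359 in control cells, with an adjusted p of 0.382 by the authors' deposited table. The methyl-CpG binding gene Mbd2 stood at 3506 in Brg1-deleted and 2108 in control cells, with an adjusted p of 0.534 by the authors' deposited table. Of 7 Sin3 and CtBP corepressor genes 6 lay below 0 after deletion, at a median of -0.26, and 4 after knockdown, at a median of -0.17. The lowest, Ctbp2, had authors' means of 53.8 in Brg1-deleted and 100.1 in control cells, with an adjusted p of 0.809 by the authors' deposited table.

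Enzymes that modify or degrade Ikaros had no called gene in either table. Among all genes 1.47% were called after deletion and 0.218% after knockdown, so 0 of 13 says little about these enzymes. Of 13 genes for kinases, phosphatases and the cereblon ubiquitin ligase, through which thalidomide analogues remove human Ikaros and Aiolos, 0 were called, with medians of -0.12 after deletion, in a range from -0.42 to 0.70, and of -0.07 after knockdown, from -0.23 to 0.23. Syk, a tyrosine kinase that phosphorylates Ikaros, had authors' means of 15246 in Brg1-deleted and 9368 in control cells, with p = 0.0265 and an adjusted p of 0.471 by the authors' deposited table. Crbn, the cereblon gene, stood at 472 in Brg1-deleted and 364 in control cells, with an adjusted p of 1 by the authors' deposited table.

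Genes reported as lowered by Ikaros family factors lay mostly below 0 after deletion, without a call. They numbered 8 of 9 below 0 at a median of -0.63 after deletion, and 6 of 9 at a median of -0.13 after knockdown, with 0 called in both tables. Among all genes 1.47% were called after deletion and 0.218% after knockdown. A count of 0 in 9 genes therefore says little, here and for the raised genes below. Dntt, the template-independent polymerase of V(D)J joining, had authors' means of 337 in Brg1-deleted and 1273 in control cells, with p = 0.0043 and an adjusted p of 0.163 by the authors' deposited table. With Brg1 shRNA the Dntt mean was 330 and with control shRNA 840, with an adjusted p of 1 by the authors' deposited table. Myc, a growth regulator, stood at 517 in Brg1-deleted and 1938 in control cells, with an adjusted p of 0.146 by the authors' deposited table. The cell cycle kinase gene Cdk6 had authors' means of 481 in Brg1-deleted and 786 in control cells, with an adjusted p of 0.607 by the authors' deposited table. After knockdown Cdk6 went the other way, at 552 with Brg1 shRNA and 435 with control shRNA, without a call. Genes reported as raised by the family had medians of 0.12 after deletion, with 6 of 9 above 0, and of -0.06 after knockdown, with 4 of 9 above 0, and 0 calls in both. Among them the cell cycle inhibitor gene Cdkn1b had authors' means of 2451 in Brg1-deleted and 1318 in control cells, with an adjusted p of 0.376 by the authors' deposited table. Rag2, of the same list, was lower in both experiments without a call. Its authors' means were 471 in Brg1-deleted and 545 in control cells, and 74.1 with Brg1 shRNA and 127 with control shRNA.

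Genes of the pre-B and later stages, at which Aiolos is known to accumulate, held the calls of the B lineage lists apart from Irf8. After deletion 13 of 14 lay above 0, at a median log2 fold change of 1.31, and 3 were called higher in the authors' deposited table (Bcl6, Cd38 and Cd79b). Of all genes 0.732% were called higher. After knockdown 12 of 14 lay above 0, at a median of 0.63, with 2 called higher (Ms4a1 and Cd55), against 0.177% of all genes. Ikzf3, at 0.60 after deletion and 0.45 after knockdown, lay below these medians. Bcl6, a repressor, had authors' means of 501 in Brg1-deleted and 101 in control cells, and Ms4a1, which encodes CD20, had 2351 with Brg1 shRNA and 853 with control shRNA. Cd38, an ectoenzyme of the B cell surface, had authors' means of 1958 in Brg1-deleted and 706 in control cells. Among 8 of the 14 genes that could be recovered per library, the summed level was 8966 and 3615 in the Brg1-deleted and 1679 and 2615 in the control libraries. Of 18 B lineage transcription factors, 1, Irf8, was called higher after deletion, at a list median of 0.29, and 0 were called after knockdown, at a median of 0.10. Of the 12 early B cell identity markers 1, Cd79b, was called higher after deletion and 0 after knockdown, at medians of 0.17 and 0.05.

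**Figure D4:**
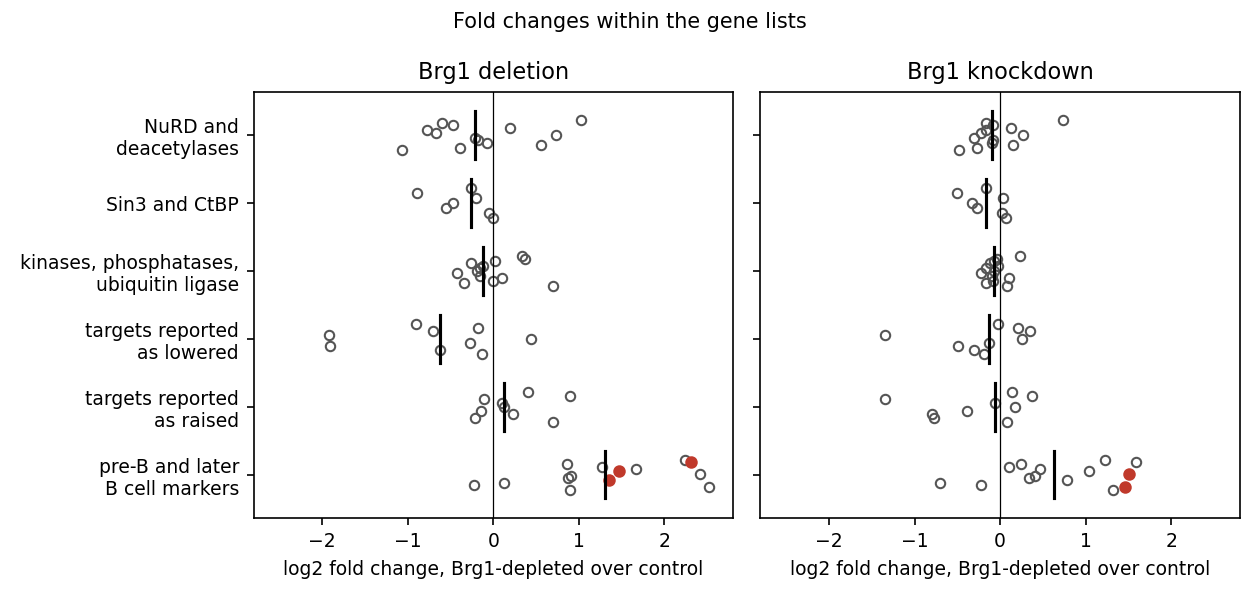
Log2 fold changes, Brg1-depleted over control, of the genes in 6 lists after deletion (left) and knockdown (right), from the authors' deposited tables. Each circle is a gene, filled red where its adjusted p is under 0.05, and black bars are list medians. Pre-B and later B cell markers have the highest medians of these lists, 1.31 and 0.63, and the only filled circles.

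Some genes resembled single members across the 4 group means. Likeness was measured as the distance between log2 group means after each gene was centred on its own mean, over 11529 genes with at least 10 normalized reads in all 4 groups, for members spanning at least 2-fold. For Ikzf3, which spanned 2.06-fold, the nearest genes were Hspb11 at a distance of 0.0163, Pex5 at 0.0248 and Gm16536 at 0.0292. For Ikzf4, which spanned 2.75-fold, they were Gm7389 at 0.141, Eps8l1 at 0.196 and Gm17092 at 0.255. For Ikzf2, which spanned 3.05-fold, they were Zfp516 at 0.0894, Ppt2 at 0.118 and Dock5 at 0.125. Ikzf1 and Ikzf5 spanned 1.20-fold and 1.26-fold and were not compared. The distances join tables that were normalized separately and rest on 4 values per gene. With the knockdown table rescaled to the deletion controls, Ikzf3 spanned 1.71-fold and would not have been compared, while Ikzf2 spanned 2.54-fold and Ikzf4 2.75-fold. For Ikzf2 the span lies mostly between the experiments, since the authors' means were 46.5 in Brg1-deleted and 57.0 in control cells but 20.4 with Brg1 shRNA and 18.7 with control shRNA.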

How the data were processed

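Polyadenylated RNA of 10 libraries was analysed, while 16 further samples, on open chromatin and bound proteins, were not used here. Groups came from sample titles. CASAVA, RSEM and DESeq are named with the mm10 build in the submitters' processing notes, with no versions. The deposited signal is a mean per group of reads over size factors, as the headers and values show. The authors deposited a log2 fold change (Brg1-depleted over control) and a p-value, raw and Benjamini-Hochberg adjusted, and calls use an adjusted p under 0.05. The deposited table also marks 4 of the 5 members (not Ikzf2), and 47.1% of deletion genes, as confounded, without a definition in the sources used here.

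In the deletion table each mean was solved for whole reads of 2 libraries, where sums within 6.0e-05 of the mean counted as solutions. Each of the 19404 genes could be solved in both groups, and 94.6% had 1 solution. Genes with 1 solution and a mean of at least 1 entered limma 3.58.1 (R 4.3.3), on log2 of reads plus 0.5 over the size factor and letting the variance follow the mean. Both steps were tested on simulated data, the limma fit with large changes only. The solving for 3 libraries, used for Ikzf2 and Ikzf4 in the knockdown, was not tested in this way. Depths of the knockdown libraries were estimated from their size factors, and those of the deletion libraries from the most even solutions. Python 3.11.15, numpy 2.4.6, pandas 2.3.3 and matplotlib 3.10.9 were used.

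The members, the 11 gene lists and the tests were chosen with earlier results of these data known. Named list genes are those called in either table and up to 4 more by p in the deletion table. They also include the 3 genes nearest to each member spanning at least 2-fold. Genes beside the members were chosen after their values were seen. Alternatives were an adjusted p of 0.1, a 1.5-fold minimum, adjustment over listed genes, at least 10 normalized reads, genes without the mark, pseudocounts of 1 and 10, centring, rescaling between tables and leaving out libraries. Isoforms were not analysed here. The level of 1 marker gene is not reported here.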

Additional observations from a re-analysis of the deposited data

How the results depend on the processing

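No Ikaros family gene was called under the alternatives run, but not every member entered each: the filter on the confounded mark left only Ikzf2, and the limma fits of all genes held only Ikzf2, Ikzf4 and Ikzf5. Over all genes the deletion count was 286 and was 189 among genes without the confounded mark, where fewer genes were tested. With limma on recovered reads it was 0, and with 1 library left out it was 0 to 47, the 47 without the shallower control library. Each of these fits has 1 library in an arm, which is assumed to vary like the other arm, so their lack of family calls says nothing about stability. The cause of the difference between limma and the deposited calls was not tested. Of 43 alternatives for the members' log2 fold changes after deletion 5 changed sign. These were Ikzf2 without the shallower Brg1-deleted library (0.21) and without the shallower control library (0.04), in a range from -0.90 to 0.21 with each library left out, and Ikzf1 in 3 uneven combinations of whole-read solutions (-0.13, -0.84 and -0.57), where all 9 combinations ran from -0.84 to 2.37, an alternative added after the data were examined. None of 15 changed sign after knockdown, but these were only pseudocounts and centring. An equal pseudocount in both groups cannot change a sign, and centring moved the values very little. They therefore say nothing about the stability of the knockdown directions, and the same settings are counted among the 43 after deletion. Ikzf4 ranged from -1.73 to -1.19 with each library left out, and its interval included 0 without the deeper control library. Rescaling the knockdown table multiplied its levels by 1.20. No paired analysis was possible because the deposited columns are group means and the recovered libraries carry no replicate number. Leaving out libraries of the knockdown was not run, since its reads per library were sought only for Ikzf2 and Ikzf4, with several solutions in at least 1 group. Ikzf2 and Ikzf4 rest on 25 to 84 reads per deletion library, which limits their precision.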
